A study of Mus musculus with 12 samples.

Results

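The genes described are 7 genes of the lysosome and its proton pump, Atp6v1a, Tcirg1, Lamp1, Mcoln1, Ctsf, Cln8 and Chmp2b. They were chosen by name for their roles in this pathway, and all 7 were present among the 35129 gene entries of the deposited count table. Among them Cln8 was called different between the saline-treated cell types. It had 91.2 to 160 CPM (a gene's count over the total of its library, times 1e6) in the Sst libraries and 11.7 and 12.6 CPM in the Thy1 libraries after saline. This call was lost in 4 of 5 fits with 1 library left out, and Cln8 missed the threshold after nicotine (edgeR adjusted p = 0.650) and in the model over both treatments (0.0618). Atp6v1a, the most abundant of the 7, varied by 1.87-fold between its lowest and highest library. Between nicotine and saline edgeR called no gene of the 7 in either cell type, and it called 0% of the 6689 entries tested for Sst-neurons and 0% of the 6048 for Thy1-neurons.

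RNA was sequenced from fluorescent cortical neurons picked by hand with a micropipette from digested slices of male mice. The mice were 5 to 7 weeks old when divided into groups, before the 14 days of treatment. Sst-neurons came from GIN mice on the FVB background, in which some of the somatostatin interneurons carry enhanced green fluorescent protein, and Thy1-neurons from YFPH mice on the B6 background, in which a Thy1 promoter drives yellow fluorescent protein in layer V pyramidal cells. Before collection the mice had carried a subcutaneous osmotic pump for 14 days that gave either saline (groups Sst and Thy1) or nicotine hydrogen tartrate at 48 mg/kg/d (groups Sst+Nic and Thy1+Nic). Of the 12 libraries, 10 were used, namely 3 of Sst, 2 of Sst+Nic (replicates 2 and 3), 2 of Thy1 (replicates 2 and 3) and 3 of Thy1+Nic, and the others were not analysed here. Each cell type came from its own transgenic line and strain, so cell type and strain cannot be told apart. Each library was made from few cells and amplified, and a library gives the level in a pool of cells, so fewer cells with a transcript and less of it per cell cannot be told apart.

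The lysosome breaks down protein, lipid and carbohydrate delivered by endocytosis and autophagy, and its hydrolases work in an acid lumen. The vacuolar ATPase (V-ATPase) makes that acid by using ATP in its cytosolic V1 sector to drive protons through its membrane V0 sector; in neurons the same pump also loads synaptic vesicles. Inherited loss of lysosomal proteins is a frequent cause of childhood neurodegeneration, in particular the neuronal ceroid lipofuscinoses, in which storage material builds up in neurons.

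Many lysosomal genes carry an E-box, CACGTG, near their start, and the motif TCACGTGA is the core of the element bound by the lysosomal regulator TFEB. RefSeq promoters of GRCm38.p6, each with 250 bases before and 50 after the start, were available for 6 of the 7 genes, all but Cln8. On either strand CACGTG was found in 4 of them, those of Atp6v1a, Lamp1, Mcoln1 and Ctsf, and not in that of Chmp2b or in the 3 windows of Tcirg1. Of all 27025 genes with a promoter, 8.09% held CACGTG. The longer motif, which contains the E-box, was found for Atp6v1a and Mcoln1 and in 1.12% of all genes. The stretches that hold the motifs are shown because they are the feature that most of these genes share although the choice of genes did not use it, with the E-boxes in capitals and every stretch written 5′ to 3′ on the strand of its gene:
Atp6v1a, chr16:44139365-44139410, minus strand: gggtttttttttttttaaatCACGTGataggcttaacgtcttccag
Lamp1, chr8:13159080-13159160, plus strand: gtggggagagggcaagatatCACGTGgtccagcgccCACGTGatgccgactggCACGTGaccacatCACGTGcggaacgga
Mcoln1, chr8:3500428-3500456, plus strand: ttagaaagggtcgcgcttgtCACGTGttc
Ctsf, chr19:4855066-4855111, plus strand: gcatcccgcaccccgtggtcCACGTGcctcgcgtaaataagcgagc
In Lamp1, 4 E-boxes lay within the last 61 bases before the start, and 0.0222% of all genes, or 6 of them, had CACGTG at 4 or more places. In Mcoln1 the 2 E-boxes began 71 and 45 bases before the start, and 0.681% of all genes had 2 or more. The one nearer the start, which is the longer motif, lies in an exon of another annotated transcript of Mcoln1 (GENCODE M21), and the stretch shown stops before that exon. The E-box of Ctsf began 79 bases and that of Atp6v1a 131 bases before the start. The start used for Atp6v1a lies inside the annotated span of the gene, and its stretch falls between annotated exons. A match describes the letters of the window and says nothing of whether a factor was bound in these neurons.

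The total per library was 2915738 to 4878326 counts, and the upper limit for a gene without a count, set at 3 counts, was 0.615 to 1.03 CPM. Somatostatin (Sst), the defining transcript of the interneurons, had 53779 to 126090 CPM in the 5 libraries of Sst and Sst+Nic. In the Thy1-neuron libraries it had 1.15 CPM in Thy1 replicate 2, 3795 CPM in Thy1 replicate 3 and 49.2, 2.36 and 1.77 CPM in Thy1+Nic replicates 1 to 3, so that Thy1 replicate 3 stood apart from the other libraries of its cell type. Mitochondrially encoded genes took 16.3% to 22.1% of the counts in Sst-neuron libraries and 31.4% to 38.5% in Thy1-neuron libraries, and this share lowers the CPM of every nuclear gene in the latter. Both the share and the CPM refer to the totals of the deposited table, in which 941 of 1252 nuclear genes compared held under 5% of the value tabulated by the study, so they need not be shares of all the RNA sequenced. All 7 genes lay in the parts of the table whose row labels could be checked, with 891 nuclear entries in all, but on chromosome 16, which holds Atp6v1a and Chmp2b, some entries carried only part of the counts of their gene.

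The levels per kb of exon, the scale on which genes can be compared, spanned a wide range. Atp6v1a was highest in all 10 libraries, with a mean of 585 CPM per kb (SD 102, n = 10). Lamp1 followed with 145 (SD 37.9) and Chmp2b with 106 CPM per kb (SD 32.6), and they changed places in 2 libraries, Thy1+Nic replicates 2 and 3. Ctsf had a mean of 15.5 (SD 9.38), Mcoln1 of 10.2 (SD 5.5) and Cln8 of 8.97 CPM per kb (SD 6.56), and the order of these 3 differed between libraries. Tcirg1 was lowest in 9 of the 10 libraries, with a mean of 2.28 CPM per kb (SD 2.85). Taken library by library, Lamp1 was above Chmp2b by 39.1 CPM per kb on average (SD of the difference 56.2), and was the higher in 8 of 10. The mean differences among Ctsf, Mcoln1 and Cln8, 1.20 to 6.53 CPM per kb, were likewise smaller than their SDs of 7.42 to 8.57. All other neighbours in the order differed by more than 1 SD. Among the 865 checked entries with an exon length, Atp6v1a ranked 16th, Lamp1 53rd, Chmp2b 66th and Tcirg1 437th by mean level per kb. On chromosome 16, genes compared with the study held as little as 30.8% of the tabulated value, and Atp6v1a and Chmp2b were not compared. Their levels may be too low, so the order of Lamp1 and Chmp2b and these ranks are not settled.

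**Figure D1:**
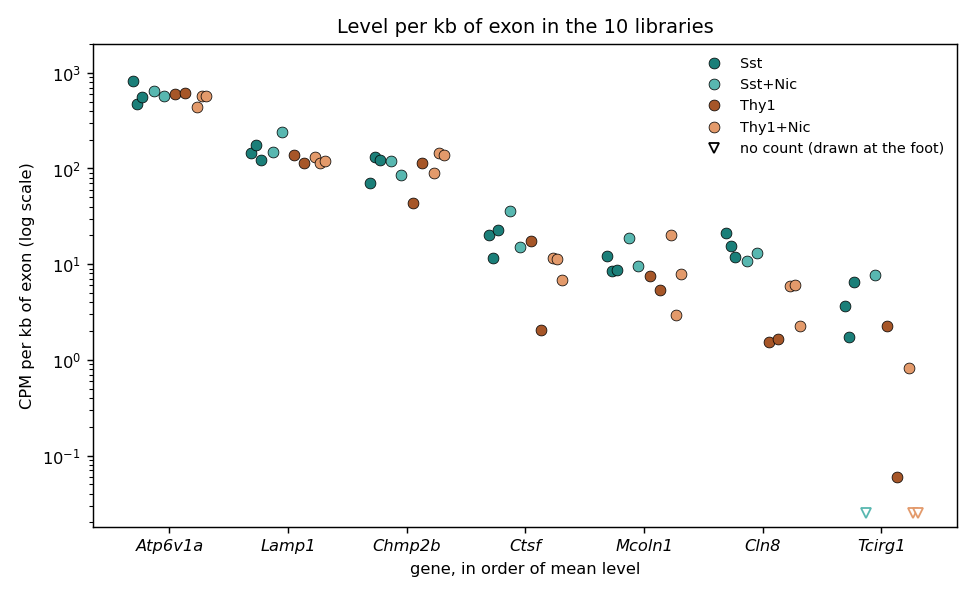
Level of each gene per kb of exon (log axis, CPM per kb) in the 10 libraries, 1 point per library, coloured by group, with libraries without a count drawn as open triangles at the foot. Atp6v1a lies above every other gene in all 10 libraries, and the Cln8 points of the Thy1-neuron groups lie below all those of the Sst-neuron groups.

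Differences were tested by edgeR (quasi-likelihood F-test) over all entries kept by its filter, and a gene was called at a Benjamini-Hochberg adjusted p under 0.05 with an absolute log2 fold change above 1. All 7 genes passed the filter in every comparison. Between saline-treated Sst and Thy1, 1 of the 7 was called (Cln8, higher in Sst), while 1.72% of the 6350 entries tested were called and 0.819% were called as higher in Sst. Among the checked entries of the same fit, described above, these shares were 4.29% of 489 and 1.64%. Between Sst+Nic and Thy1+Nic, 0 of 7 were called against 0.507% of 6509 entries and 1.79% of the checked ones. Over both treatments in 1 model, 0 of 7 were called against 4.62% of 8242 entries and 10.1% of the checked ones. For nicotine against saline, 0 of 7 were called in Sst-neurons against 0% of 6689 entries and 0 of 7 in Thy1-neurons against 0% of 6048. For the difference between the nicotine effects of the cell types (the interaction) it was 0 of 7 against 0% of 8242. On simulated data the interaction fit called 0% of entries changed by 3 log2 units, so its lack of calls cannot decide on such changes. DESeq2 called more entries throughout. Of the 7 it called Cln8 in the saline comparison (8.87% of all entries) and over both treatments (10.4%), and none in the nicotine-treated comparison (7.8%), for nicotine in Sst-neurons (0.269%) or Thy1-neurons (0.231%) or for the interaction (0.303%). By unadjusted p under 0.05 in edgeR, 0 of 7 members passed for nicotine in Sst-neurons (4.19% of entries) and 1, Cln8, for nicotine in Thy1-neurons (4.37%). The same count was 1, Cln8, in the saline comparison (16.3%), 0 in the nicotine-treated comparison (15.8%), 1, Cln8, over both treatments (20.5%) and 1, Cln8, for the interaction (7.34%).

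**Figure D2:**
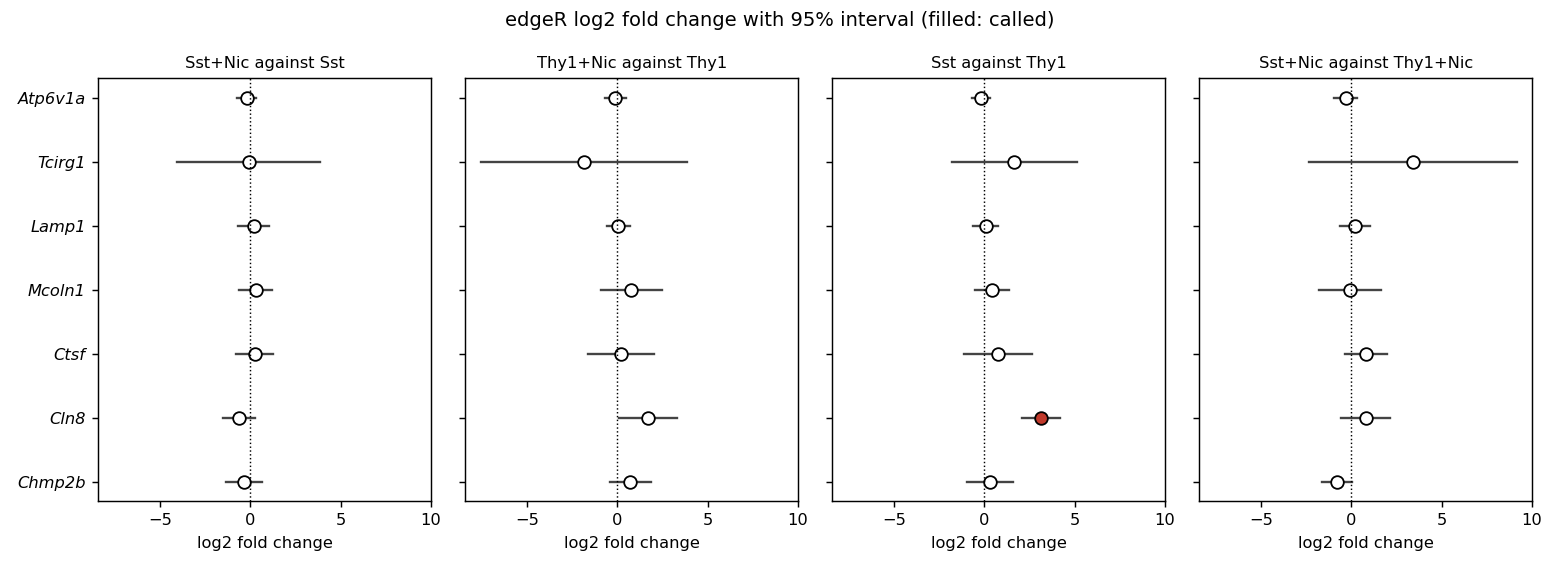
edgeR log2 fold change of each gene with its 95% interval for nicotine with saline within each cell type and for Sst-neurons with Thy1-neurons after saline and after nicotine; a filled point was called. Cln8 in Sst against Thy1, at 3.15, is the single filled point, and the widest intervals are those of Tcirg1.

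Atp6v1a (chromosome 16, 44085402 to 44139702, minus strand, GRCm38) encodes the catalytic A subunit of the V1 sector, where ATP is split. Its level was 4915, 2830 and 3376 CPM in Sst replicates 1 to 3. After nicotine, Sst+Nic replicates 2 and 3 had 3891 and 3426 CPM, within the range of Sst. The level was 3666 and 3684 CPM in Thy1 replicates 2 and 3 and 2635, 3463 and 3458 CPM in Thy1+Nic replicates 1 to 3. The 3 Thy1+Nic libraries were thus all below both Thy1 libraries in CPM, as were 13.7% of the 503 checked nuclear entries with a mean count of at least 10. With TMM-normalized CPM (edgeR's trimmed mean scaling of library sizes) the groups overlapped, at 3113 to 4385 for Thy1+Nic and 3673 to 4153 for Thy1. The log2 fold change for nicotine was -0.10 (SE 0.24, edgeR adjusted p = 1.00) in Thy1-neurons, with a 95% interval of -0.66 to 0.46, and -0.21 (SE 0.22) in Sst-neurons, from -0.72 to 0.30. The difference between Sst and Thy1 after saline was -0.18 (SE 0.21), from -0.67 to 0.30. After nicotine the CPM of both cell types overlapped, while on the TMM scale Sst+Nic (2882 and 3060) lay below all 3 Thy1+Nic libraries, as did 23.7% of the checked nuclear entries. The log2 fold change there was -0.31 (SE 0.27, edgeR adjusted p = 0.730), and it was 0.21 with library totals in place of TMM. Every interval of Atp6v1a in the comparisons of 2 groups lay within 1 log2 unit of 0, and those of Lamp1 were the next narrowest.

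Tcirg1 (chromosome 19, 3896050 to 3907133, minus strand) encodes the a3 subunit of the V0 sector, best known from the osteoclast, where its loss causes osteopetrosis. It was counted in 7 of the 10 libraries. The counts in Sst replicates 1 to 3 were 68, 31 and 111, or 16.9, 7.91 and 30.0 CPM. Sst+Nic replicate 2 had 0 counts, which allows up to 1.03 CPM, while replicate 3 had the highest level of all, 35.9 CPM (95% Wilson interval 30.9 to 41.6, which covers counting error only). The Thy1 libraries had 36 counts (10.3 CPM) and 1 count (0.275 CPM). The Thy1+Nic libraries had 13 counts (3.74 CPM), 0 and 0, the latter allowing up to 0.709 and 0.884 CPM. Replicates of 1 group therefore differed by more than counting error, and the groups of every comparison overlapped. Over both treatments the edgeR log2 fold change of Sst-neurons over Thy1-neurons was 2.53 (SE 1.49, adjusted p = 0.394), with a 95% interval from -0.68 to 5.74. The value was 0.42 without Sst+Nic replicate 3 and 4.05 without Thy1 replicate 2.

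Lamp1 (chromosome 8, 13159161 to 13175338, plus strand) encodes a heavily glycosylated protein that lines the lysosomal membrane. Sst replicates 1 to 3 had 387, 468 and 330 CPM, and Sst+Nic replicates 2 and 3 had 399 and 639 CPM. The Thy1 libraries had 371 and 308 CPM, and the Thy1+Nic libraries 354, 303 and 321 CPM. Sst+Nic replicate 3 was the highest of the 10 libraries. In CPM both Sst+Nic libraries were above all Thy1+Nic libraries, as were those of 29.6% of the 503 checked nuclear entries, but on the TMM scale the groups overlapped, at 295 to 571 and 336 to 418. The corresponding log2 fold change was 0.20 (SE 0.35, edgeR adjusted p = 0.910), with a 95% interval from -0.62 to 1.02, and with library totals in place of TMM it was 0.68 (edgeR adjusted p = 0.337). Nicotine against saline gave 0.19 (SE 0.36) in Sst-neurons, from -0.67 to 1.05, and 0.05 (SE 0.27) in Thy1-neurons, from -0.58 to 0.68. Lamp1 shares 249 exon bases with Grtp1 on the opposite strand, and whether counting used strand is not given in the sources used here.

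Mcoln1 (chromosome 8, 3500519 to 3515232, plus strand) encodes mucolipin 1 (TRPML1), the channel through which calcium leaves the lysosome, and its loss causes mucolipidosis type IV. The 3 Sst libraries had 91.7, 64.5 and 65.3 CPM, and the 2 Thy1 libraries 57.3 and 40.9 CPM. These groups did not overlap, also on the TMM scale, and the checked nuclear entries that were likewise higher in every Sst than in every Thy1 library made up 19.9% in CPM and 16.9% on the TMM scale. Between them the log2 fold change was 0.42 (SE 0.39, edgeR adjusted p = 0.727), with a 95% interval from -0.52 to 1.35. With nicotine the spread was wider, at 142 and 72.0 CPM in Sst+Nic replicates 2 and 3 and 153, 22.0 and 59.5 CPM in Thy1+Nic replicates 1 to 3. Thy1+Nic thus held both the highest and the lowest Mcoln1 level of the series, a 6.94-fold range. Nicotine against saline gave a log2 fold change of 0.30 (SE 0.38) in Sst-neurons and 0.78 (SE 0.74, edgeR adjusted p = 1.00) in Thy1-neurons, the latter with an interval from -0.92 to 2.48. Without Thy1+Nic replicate 1 the value in Thy1-neurons turned to -0.23.

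Ctsf (chromosome 19, 4855165 to 4860918, plus strand) encodes cathepsin F, a lysosomal cysteine protease whose loss causes an adult-onset ceroid lipofuscinosis. Its levels were 102, 58.9 and 115 CPM in the Sst and 180 and 77.1 CPM in the Sst+Nic libraries. In Thy1 they were 88.2 CPM in replicate 2 and 10.4 CPM in replicate 3, the latter being the lowest Ctsf level of the 10 libraries and coming from the library with 3795 CPM of Sst. Thy1+Nic replicates 1 to 3 had 57.9, 56.7 and 34.5 CPM. In CPM both Sst+Nic libraries were above the 3 Thy1+Nic libraries, again set against 29.6% of checked entries, whereas on the TMM scale they overlapped, at 68.8 to 133 and 36.2 to 71.8. The log2 fold change of Sst-neurons over Thy1-neurons was 0.77 (SE 0.79, edgeR adjusted p = 0.765) after saline and 0.79 (SE 0.50, edgeR adjusted p = 0.561) after nicotine. Without Thy1 replicate 3 the saline value was -0.06, and without Thy1 replicate 2 it was 2.81. The value after nicotine was 0.22 without Sst+Nic replicate 2 and 1.37 with library totals in place of TMM. Over both treatments it was 0.78 (SE 0.47, edgeR adjusted p = 0.405), with a 95% interval from -0.23 to 1.79, and it was 1.45 without Thy1 replicate 2 and 0.46 without Thy1 replicate 3.

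Cln8 (chromosome 8, 14881335 to 14901720, plus strand) encodes a membrane protein of the endoplasmic reticulum that helps newly made lysosomal enzymes on their way to the Golgi, and its loss causes a ceroid lipofuscinosis in humans and the motor neuron degeneration mouse. The counts in Sst replicates 1 to 3 were 642, 462 and 338, or 160, 118 and 91.2 CPM. Thy1 replicates 2 and 3 had 41 and 46 counts, or 11.7 CPM (95% Wilson interval 8.66 to 15.9) and 12.6 CPM (9.47 to 16.8). Sst+Nic replicates 2 and 3 had 82.7 and 98.4 CPM, and Thy1+Nic replicates 1 to 3 had 44.6, 46.1 and 17.4 CPM. All 5 Sst-neuron libraries were thus above all 5 Thy1-neuron libraries, as they were for 8.35% of the checked nuclear entries, and they stayed apart on the TMM scale, at 61.2 to 136 and 11.8 to 58.3, where the share of such entries was 6.36%. With mitochondrially encoded genes left out of the totals, the group means were 157 ± 44.0 CPM in Sst (SD, n = 3) and 18.4 ± 1.73 CPM in Thy1 (SD, n = 2).

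After saline the mean of Cln8 was 123 ± 34.5 CPM (SD, n = 3) in Sst and 12.2 ± 0.625 CPM (SD, n = 2) in Thy1, a 10.1-fold ratio. The edgeR log2 fold change was 3.15 (SE 0.44, adjusted p = 0.0221), with a 95% interval from 2.09 to 4.20. Its size held when single libraries were left out, at 2.96 to 3.32, but the call rested on 4 of the 5 libraries. The adjusted p was 0.0760 without Sst replicate 1, 0.10 without Sst replicate 2, 0.133 without Thy1 replicate 2 and 0.101 without Thy1 replicate 3, and 0.0469 without Sst replicate 3. Thy1 replicate 3, the library with Sst transcript, had a Cln8 level next to that of Thy1 replicate 2, and without it the log2 fold change was 3.28. Over the alternatives with all libraries the adjusted p ranged from 4.8e-09 with DESeq2 to 0.0752.

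After nicotine the distance between the cell types was smaller in value, with 90.5 ± 11.1 CPM (SD, n = 2) in Sst+Nic and 36.0 ± 16.2 CPM (SD, n = 3) in Thy1+Nic. The 29.6% of checked entries that were higher in both Sst+Nic libraries than in all Thy1+Nic libraries is the background here as well. The log2 fold change was 0.80 (SE 0.59, edgeR adjusted p = 0.650), with an interval from -0.57 to 2.16, and 1.33 with library totals in place of TMM, a scaling that moved the median of all entries by 0.51 in this comparison. It fell to 0.44 without Thy1+Nic replicate 3 and 0.50 without Sst+Nic replicate 3. Over both treatments the log2 fold change of Sst-neurons over Thy1-neurons was 1.95 (SE 0.55, edgeR adjusted p = 0.0618), from 0.77 to 3.14. This value missed the threshold, while 5 of the 6 alternatives with all libraries passed it, with adjusted p from 0.0016 with DESeq2 to 0.0380, the exception being RLE size factors at 0.0576. It also passed without Sst+Nic replicate 2 (0.0196), Sst+Nic replicate 3 (0.0461) or Thy1+Nic replicate 2 (0.0462), and it was 0.177 without Thy1 replicate 3.

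**Figure D3:**
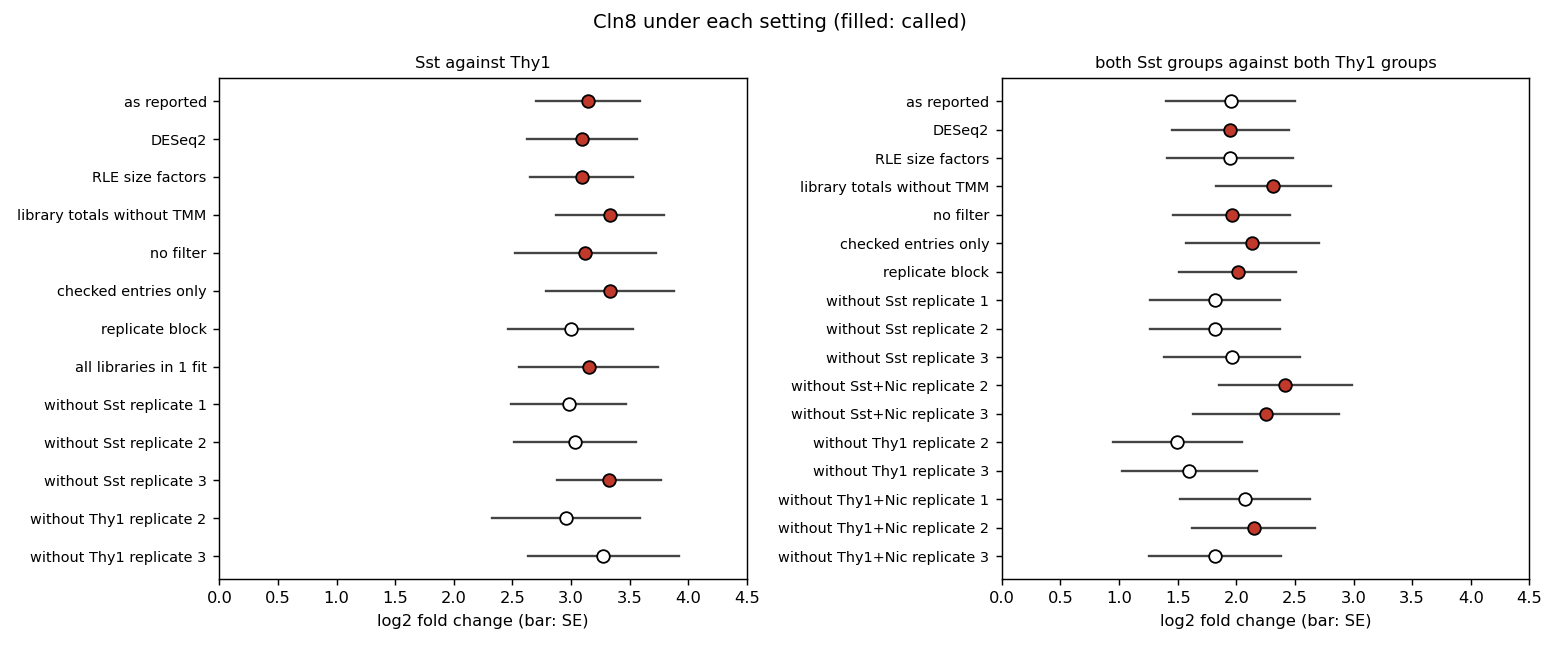
edgeR or DESeq2 log2 fold change of Cln8 (bars, SE) for Sst against Thy1 and for both Sst-neuron groups against both Thy1-neuron groups, under each setting and with each library left out; filled points were called. The values stay between 2.96 and 3.33 in the first and between 1.49 and 2.42 in the second comparison, and the call comes and goes with the setting in both.

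In Thy1-neurons Cln8 was higher in all 3 Thy1+Nic than in both Thy1 libraries, as were 7.55% of the checked nuclear entries. The mean ratio was 2.96-fold, and the edgeR log2 fold change was 1.70 (SE 0.70, unadjusted p = 0.0415, adjusted p = 1.00), with an interval from 0.08 to 3.32. The unadjusted edgeR value did not stay under 0.05 throughout: it was 0.0525 with library totals, 0.0783 with checked entries only and 0.185 with the replicate block, where the log2 fold change was 1.31. Of the 5 fits with 1 library left out, 4 were above 0.05, at 0.0855 to 0.131. In Sst-neurons the groups overlapped and the log2 fold change for nicotine was -0.63 (SE 0.37, edgeR adjusted p = 1.00), with an interval from -1.50 to 0.23. The difference between these effects, Sst-neurons minus Thy1-neurons, was -2.36 (SE 0.76, unadjusted p = 0.00898, edgeR adjusted p = 0.672), with an interval from -4.01 to -0.70. Its sign was negative in all 6 alternatives with all libraries and in all 10 fits with 1 library left out, and no such fit passed the adjusted threshold.

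Markers of other cells were counted in some of the same libraries. Of the endothelial and pericyte markers, 3 were in checked entries (Cldn5, Jam2 and Cd248), with summed levels of 0 to 37.5 CPM in Sst, 5.49 to 16.6 CPM in Sst+Nic, 0 to 9.33 CPM in Thy1 and 0 to 16.1 CPM in Thy1+Nic. Cldn5 and Jam2 had no count in either Thy1 library. Of the markers of microglia and other blood-derived cells, 4 were checked (Cd86, Hcls1, Unc93b1 and Tbc1d10c), with summed levels of 0 to 68.6 CPM in Sst, 0 to 22.8 CPM in Sst+Nic, 0 to 11 CPM in Thy1 and 0 to 17 CPM in Thy1+Nic. Of the oligodendrocyte lineage, Olig1 and Olig2 were counted, in entries whose row labels could not be checked. Their summed levels were 15.8 to 47.7 CPM in Sst, 21.3 and 161 CPM in Sst+Nic, 0 and 46.4 CPM in Thy1 and 0 to 17.0 CPM in Thy1+Nic. The 46.4 CPM in Thy1 replicate 3 was all Olig1, which had 8.06, 1.89 and 0 CPM in Thy1+Nic replicates 1 to 3. Olig2 had no count in either Thy1 library and 8.93, 12.5 and 0 CPM in Thy1+Nic replicates 1 to 3. Sst replicate 1, which had the highest Cln8 level, had no count on the 7 checked markers and the 47.7 CPM of Olig1 and Olig2. Sst+Nic replicate 3, with the 161 CPM, had a Cln8 level of 98.4 CPM, and Sst replicate 3, with the 68.6 CPM of microglial and blood markers, had 91.2 CPM. The mitochondrial share and the summed markers moved with cell type or library, and beyond the values given their part in the Cln8 difference was not tested.

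Chmp2b (chromosome 16, 65539128 to 65562762, minus strand) encodes a subunit of ESCRT-III, which cuts vesicles into the multivesicular endosomes that fuse with lysosomes, and its mutation causes a frontotemporal dementia. The Sst libraries had 135, 257 and 238 CPM, and the Sst+Nic libraries 233 and 165 CPM. The level was 83.9 and 218 CPM in Thy1 replicates 2 and 3 and 172, 277 and 264 CPM in Thy1+Nic replicates 1 to 3. All groups overlapped in CPM, while on the TMM scale Sst+Nic (148 and 172) was below Thy1+Nic (203 to 351), as were 23.7% of the checked nuclear entries on that scale. Sst+Nic differed from Thy1+Nic by a log2 fold change of -0.78 (SE 0.36, edgeR adjusted p = 0.349), with an interval from -1.60 to 0.05, and by -0.25 with library totals in place of TMM. For nicotine against saline it was 0.73 (SE 0.49, edgeR adjusted p = 1.00) in Thy1-neurons and -0.35 (SE 0.41) in Sst-neurons. Without Thy1 replicate 2 the value in Thy1-neurons was 0.15, and without Thy1 replicate 3 it was 1.73.

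**Figure D4:**
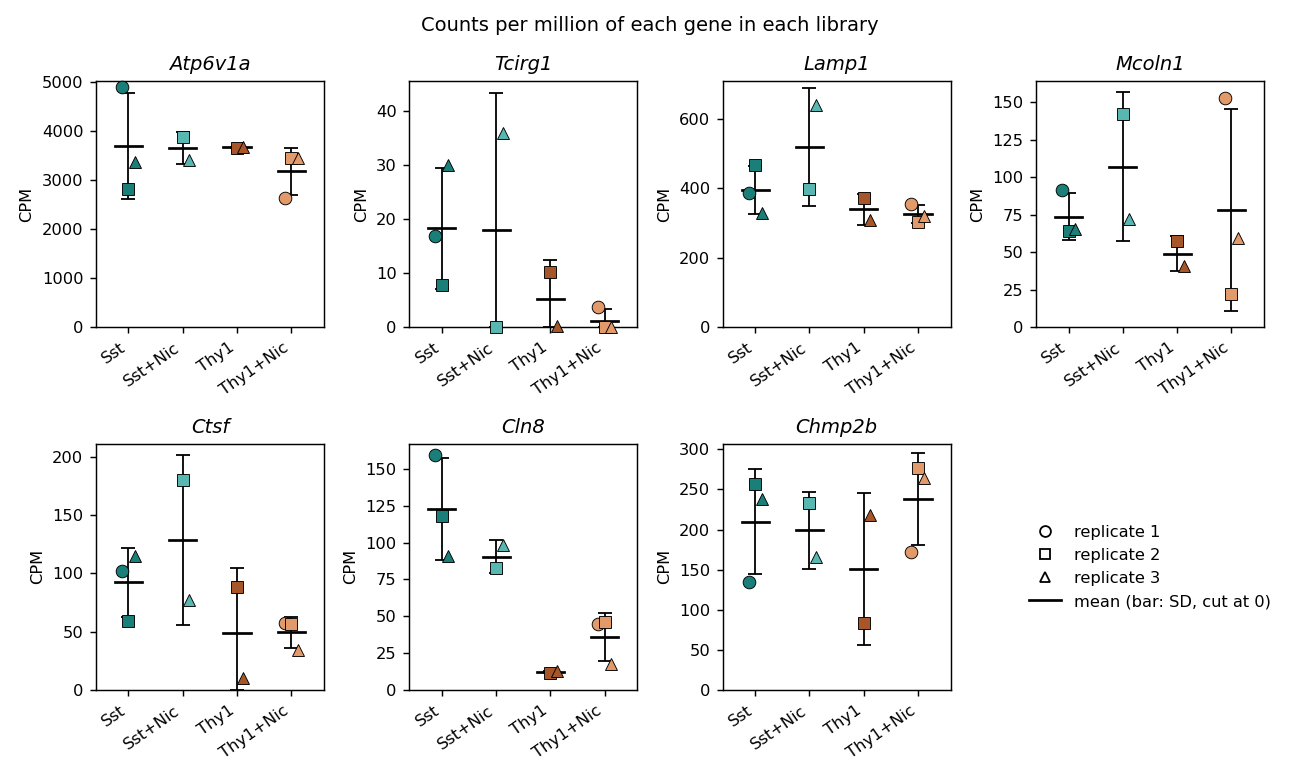
CPM of each gene in each library by group (points, with shape for the replicate number; line, mean; bar, SD). Cln8 separates the 5 Sst-neuron libraries (82.7 to 160 CPM) from the 5 Thy1-neuron libraries (11.7 to 46.1 CPM), and the other genes have overlapping groups in most comparisons.

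The median log2 fold change of nicotine over saline was -0.10 in Sst-neurons, against 0.05 over all entries tested and -0.076 over the checked ones. In Thy1-neurons it was 0.20, against 0.00 over all entries and 0.095 over the checked ones. For Sst over Thy1 the median was 0.42 after saline, against 0.05 over all entries and -0.03 over the checked ones. There 6 of 7 values were above 0 (49.1% of the checked entries). After nicotine the median was 0.20, against 0.09 over all entries and -0.16 over the checked ones, with 4 of 7 above 0 (43.7%). With library totals in place of TMM, and with checked entries only, 7 of 7 were above 0 after saline, against 56.2% and 56% of the checked entries, and with library totals 6 of 7 were above 0 after nicotine (63.5%). The correlation of log2 TMM-normalized CPM between members was taken across the 10 libraries, which differ in cell type, treatment and depth. In the 21 pairs it ran from -0.64 for Atp6v1a and Mcoln1 to 0.55 for Ctsf and Cln8. Both V-ATPase subunits, Atp6v1a and Tcirg1, had r = -0.31.

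Among 415 checked entries with a mean of at least 10 CPM, the pattern most like that of Cln8 was found in Pnpla6 (r = 0.89), a phospholipid esterase of the endoplasmic reticulum, and the predicted gene Gm6278 (r = 0.89). Chmp2b was most like Fam162a (r = 0.96) and Drap1 (r = 0.83), and Atp6v1a most like Ube2v2 and Stxbp5l (both r = 0.85). For Ctsf the nearest were Trmt2a and Nit2 (both r = 0.84), and for Lamp1 they were Tctex1d2 and Snx15 (both r = 0.76). Mcoln1 came closest to Sf3b2 (r = 0.77) and Snx32 (r = 0.74), and Tcirg1 to Rasgrp2 and Nrip1 (both r = 0.70). These values are over 10 libraries and are a description.

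The wider pathway was represented by 190 genes in 6 lists, namely V-ATPase, lysosomal membrane, lysosomal enzymes and their inhibitors, ESCRT, trafficking and autophagy, and ceroid lipofuscinosis. Of these, 24 lay in checked entries, 17 besides the members. In each comparison 9 to 11 of the 17 were tested, and edgeR called 0 in the reported fits. Under the alternatives 2 of the 17, Cst6 and Atp13a5, were called in at least 1 comparison. At an unadjusted p under 0.05 in edgeR, 2 of 10 passed between Sst+Nic and Thy1+Nic and 2 of 11 over both treatments, close to the background shares given above, and 0 passed in the other comparisons. The most abundant of the 17 was Ap2m1, a subunit of the clathrin adaptor AP-2, with 4648 ± 1635 CPM (SD, n = 3) in Sst and 3428 ± 521 CPM (SD, n = 2) in Thy1 and a log2 fold change of 0.24 (SE 0.23, edgeR adjusted p = 0.730). Snx4, a sorting nexin of the endosome, differed by 0.07 (SE 0.30, edgeR adjusted p = 0.977) in the same comparison.

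Cst6, an inhibitor of cysteine proteases, had the lowest adjusted p of the 17 in the reported fits, and it is named after its values were seen. It had 46.3 and 31.0 CPM in Sst+Nic and 83.5, 75.4 and 67.8 CPM in Thy1+Nic, and these groups did not overlap. Of the checked nuclear entries, 12.3% were likewise lower in both Sst+Nic libraries than in all Thy1+Nic libraries in CPM, and 23.7% on the TMM scale. The log2 fold change of Sst+Nic over Thy1+Nic was -1.50 (SE 0.45, edgeR adjusted p = 0.200), from -2.54 to -0.47, and DESeq2 gave an adjusted p of 0.0233, with 7.8% of entries called. Over both treatments it was -1.14 (SE 0.43, edgeR adjusted p = 0.158), and without Sst replicate 2 it was -1.60 and called (edgeR adjusted p = 0.0169), with 3.95% of entries called. After saline it had 20.6, 57.1 and 17.3 CPM in Sst and 53.3 and 47.2 CPM in Thy1, with Sst replicate 2 above both Thy1 libraries. Vps8, a subunit of the endosomal CORVET tether, was the other at an unadjusted p under 0.05 between Sst+Nic and Thy1+Nic, with a log2 fold change of 1.16 (SE 0.42, edgeR adjusted p = 0.246). Over both treatments the other was Rab20, whose counts came almost wholly from Sst replicate 2 and Sst+Nic replicate 3, at 4.85 and 23.6 CPM. Atp13a5, a P-type ATPase, is also named after its values were seen. In Sst-neurons it was counted in Sst+Nic replicate 3 alone, at 84.9 CPM, and it did not pass the filter for nicotine in these cells. With no filter it was called there (edgeR adjusted p = 1.7e-05), as were 0.0589% of entries.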

How the data were processed

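The authors amplified cDNA from pools of hand-picked neurons, aligned paired-end reads to GRCm38 with TopHat and deposited a table of counts per gene entry, without normalization; the submitters' processing notes also name HTSeq, and the settings of counting are not given in the sources used here. The table was used for 10 of the 12 libraries, and the other 2 were not analysed here. Separate mice are given as replicates, so p-values measure the spread between libraries of different mice. That spread also holds cell picking and amplification, and these parts cannot be told apart here.

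The members and gene lists were chosen with earlier results of these data known. Row labels were checked by comparing the counts of the Sst and Thy1+Nic groups, scaled on mitochondrially encoded genes, with group values tabulated by the study. For the Sst group 1252 nuclear genes were compared. Of these genes, 941 held under 5% of the tabulated value. The entries used as checked, 891 nuclear ones, lie in stretches at the starts of chromosomes 7 (to 3.3 Mb), 8 (15.0 Mb), 16 (88.3 Mb) and 19 (6.4 Mb). Of the genes compared there, 2 of 2, 8 of 9, 14 of 35 and 8 of 10 were within 1% of the tabulated value, and on chromosome 16 they held 30.8% to 105% of it. All 7 members are in these stretches. Cln8 and Tcirg1 were compared directly. Lamp1, Mcoln1 and Ctsf, and Atp6v1a and Chmp2b on chromosome 16, were not, and their labels rest on their place in these stretches. All entries entered the fits, since the calls were adjusted over the whole table.

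CPM, with Wilson intervals, was computed in Python 3.11.15 (pandas 2.3.3). Comparisons used edgeR 4.0.16 in R 4.3.3 (TMM, filterByExpr with minimum count 10, glmQLFTest) on the 5 libraries of the 2 groups compared, or on all 10 for the additive model and the interaction. All 7 members are described whatever their values, and list genes and genes of like pattern only in checked entries. The alternatives were DESeq2 1.42.0, RLE size factors, library totals without TMM, no filter, checked entries only, the replicate number as a block, all libraries in 1 fit, and each library left out. On simulated data (7407 entries in the additive model), 200 entries were changed by 3 log2 units at a dispersion of 0.4. Of these, 24.5% were called in the saline comparison of cell types, 76% in the additive model and 0% for the interaction. In the real libraries the common dispersion was higher, 0.826 to 1.33.

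Promoters are those of RefSeq for GRCm38.p6, with exons from GENCODE M21. Protein sequences were not used here.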

Additional observations from a re-analysis of the deposited data

How the results depend on the processing

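Of the 42 log2 fold changes of the 7 genes in the 6 comparisons, 18 kept their sign in every alternative that kept the gene, among them all 6 of Cln8. Tcirg1 was kept in only 3 fits with 1 library left out for nicotine in Thy1-neurons, and in 3 between the nicotine-treated cell types. The other 24 turned in at least 1 alternative. None of these 24 was called in the reported fits, where their smallest edgeR adjusted p was 0.489, and the cause of each turn was not tested. The count of members called between saline-treated Sst and Thy1 (1, Cln8) became 0 with the replicate block, where 0.929% of all entries were called, and 0 to 1 with 1 library left out (0.414% to 0.879%). Over both treatments it went from 0 to 1 with DESeq2 (10.4% of all entries called), library totals without TMM (5.02%), no filter (4.09%), checked entries only (11.5%) and the replicate block (4.14%), and was 0 to 1 with 1 library left out (3.28% to 4.45%); the gene was Cln8 each time. The other counts stayed at 0.

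With library totals without TMM, which moved the median of all entries by 0.22 for nicotine in Sst-neurons, -0.11 for nicotine in Thy1-neurons, 0.33 over both treatments, 0.33 for the interaction, 0.17 for the saline comparison and 0.51 for the nicotine-treated comparison, Lamp1 for nicotine in Thy1-neurons was -0.063 and Atp6v1a between cell types 0.011 after saline and 0.21 after nicotine. With checked entries only the first and second were -0.059 and 0.0054. With 1 library left out, Lamp1 spanned -0.38 to 0.56 and Mcoln1 -0.14 to 0.59 for nicotine in Sst-neurons. For nicotine in Thy1-neurons the spans were -0.22 to 0.020 (Atp6v1a), -0.031 to 0.12 (Lamp1), -0.23 to 1.24 (Mcoln1) and -0.58 to 2.30 (Ctsf, 0.20 with all libraries). Among values not given above, for nicotine in Sst-neurons Ctsf spanned -0.35 to 0.61 and Tcirg1 -9.1 to 0.89. Ctsf spanned -0.055 to 2.81 after saline and Lamp1 -0.37 to 0.58 after nicotine between cell types. For nicotine in Sst-neurons Chmp2b was -0.072 with library totals and -0.65 with the replicate block, and Atp6v1a was -0.015 and -0.074. Where leaving out a library left 1 in its group, that library was taken to vary like the other group.

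Replicate numbers were shared by groups of separate mice. Deviations from group means correlated at -0.18 to 0.03 in the 13 same-numbered pairs, and 0 pairs were above 0.1. In groups of 2 libraries the deviations mirror each other, so this check cannot exclude that a replicate number marks a shared step. With the replicate block Cln8 between saline-treated cell types was 3.00 (edgeR adjusted p = 0.0752) and over both treatments 2.01 (0.0380); for nicotine in Thy1-neurons Atp6v1a was 0.00033, Lamp1 -0.032 and Mcoln1 -0.33. Without mitochondrially encoded genes in the totals, 13 of 28 group means rose by more than 1 SD. With 2 to 3 libraries a group, the size of the fold changes of Tcirg1 is undetermined. Its replicates differed by more than counting error, and the cause was not tested.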
